A study of Mus musculus with 8 samples.

Results

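The cytosolic ribosomal protein genes are the 86 protein-coding genes of the deposited table, of 37417 genes in all, whose symbols begin with Rpl or Rps and a digit, or are Rplp0, Rplp1, Rplp2 or Rpsa. Ribosomal S6 kinases and names containing -ps were left out. Of the 86 genes, 42 encode proteins of the large subunit, 31 encode proteins of the small subunit, 3 encode the P stalk, and 10 are paralogs or other names that the spelling rule takes in. One of these last, Rps19bp1, encodes a protein that binds a ribosomal protein and is not itself one. RNA came from epididymal fat, the visceral pad beside the epididymis, of 4 wild-type (WT) mice and 4 knockout (KO) mice. All were male C57Bl/6 mice on chow and, per the labels, treated with Tamoxifen. The KO mice carried the floxed alleles Atg3f/f and Adiponectin-Cre, a recombinase driven by an adipocyte promoter, so that other cells of the pad are expected to keep Atg3. The sources used here do not say whether WT mice carried Cre or a floxed allele. Atg3 encodes the enzyme that couples LC3 family proteins to lipid during autophagosome formation. Poly(A) RNA was sequenced with stranded single reads, 1 library per mouse.

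Ribosomal proteins assemble with ribosomal RNA in the nucleolus into a small subunit that reads the message and a large subunit that joins amino acids, and nearly all of them are present once per ribosome. Their messages carry a 5' terminal oligopyrimidine (TOP) tract, an unbroken run of C and T at the start of the transcript, through which mTORC1 and Larp1 regulate their translation and stability together. Autophagy can deliver ribosomes to the lysosome. These genes are also known for the large number of processed pseudogenes, copies of their spliced messages, that lie elsewhere in mammalian genomes.

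The sequence around the start site is shown first, because the TOP tract described above begins there. RefSeq promoters of build GRCm38.p6 were matched by symbol for 63 of the 86 genes. Each line below gives 20 bases before and 20 bases from the annotated start, 5′ to 3′, with the longest run of C and T in capitals.
Rpl7a: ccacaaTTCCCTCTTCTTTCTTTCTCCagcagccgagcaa
Rpl27a: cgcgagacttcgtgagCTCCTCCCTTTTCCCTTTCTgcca
Rpl4: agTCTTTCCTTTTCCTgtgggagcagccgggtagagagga
Rpl28: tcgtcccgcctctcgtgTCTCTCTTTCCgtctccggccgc
Rps6: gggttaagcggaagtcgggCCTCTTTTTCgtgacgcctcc
Rplp2: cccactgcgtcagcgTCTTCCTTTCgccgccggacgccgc
Rpl10: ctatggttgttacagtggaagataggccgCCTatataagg
Rpl7a (chr2:26910787-26910826, plus strand) and Rpl27a (chr7:109519175-109519214, plus strand) have runs of 21 and 20 bases over the start. The run of Rpl4 (chr9:64173367-64173406, plus strand) is 14 bases long and ends before the annotated start. Those of Rpl28 (chr7:4792945-4792984, plus strand), Rps6 (chr4:86857348-86857387, minus strand) and Rplp2 (chr7:141447631-141447670, plus strand) lie over the start and are 11, 10 and 10 bases long. Rpl10 (chrX:74270796-74270835, plus strand) is shown as a gene whose printed window holds no run longer than 3 bases. The windows of Rps3, Rpl23 and Rpl24, not printed, likewise hold no run longer than 3 bases.

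A run of at least 8 C or T within 30 bases of a start lay in 35 of the 63 matched genes (55.6%), against 27.5% of 69 mitochondrial ribosomal protein genes and 25.8% of 27025 genes in the promoter table. The letters CCGGAAG, bound by ETS factors, lay on either strand within 250 bases before to 50 after a start in 38.1% of the ribosomal protein genes, 37.7% of the mitochondrial ones and 9.93% of all. AAGATGGC, the core of the YY1 site, was held by 9.52%, 17.4% and 3.19%, and the GC box GGGCGG by 61.9%, 49.3% and 38.2%. TATAAA was held by 11.1%, 7.25% and 15.7%. None of these 4 strings contains another. Where an annotated start is off by some bases, a run can fall outside the window, so these shares describe the annotation.

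The coding sequence of many of these genes recurs elsewhere in the genome, which bears on every count given here because the reads were 50 bases long. Of all 50-base windows in the principal GENCODE M21 transcripts of a gene, the share found at no other gene had a median of 62.9% over the 84 ribosomal protein genes that the annotation treats as coding (quartiles 37.2% and 77.7%). The same median was 100% over 21944 protein-coding genes and over 78 mitochondrial ribosomal protein genes. In 28 of the 84 genes (33.3%) fewer than 50% of windows were unique, against 6.44% of protein-coding genes and 1.28% of the mitochondrial set. A near-identical copy and a distinct paralog are shown with a stretch of coding sequence, capitals marking the bases at which the members of a pair differ.
Rpl3: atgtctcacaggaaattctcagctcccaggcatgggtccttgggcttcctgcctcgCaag
Rpl3-ps1: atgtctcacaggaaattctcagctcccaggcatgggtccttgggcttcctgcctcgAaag
Rps27: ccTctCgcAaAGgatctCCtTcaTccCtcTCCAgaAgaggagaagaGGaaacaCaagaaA
Rps27l: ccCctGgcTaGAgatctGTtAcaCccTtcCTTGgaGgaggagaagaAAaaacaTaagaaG
Rpl3 and the pseudogene Rpl3-ps1 differed at 2 of 1209 aligned coding bases (99.83% identity), 1 of them in these 60 bases. The paralogs Rps27 and Rps27l differed at 60 of 252 coding bases (76.19% identity), 19 of them in these 60. Rps27 nevertheless kept only 1.35% unique windows, since the copy Rps27rt shares 292 of its 296 windows, whereas Rps27l kept 77.6%. The sources used here do not say how the authors treated reads that match more than one place.

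Each library held between 10986375 and 21688464 counted reads. The target of the deletion was lower in KO mice, at 50.2 ± 4.34 CPM (counts scaled to library size, here with TMM, a correction for library composition; mean ± SD, n = 4) in WT and 30.3 ± 1.84 (n = 4) in KO (log2 fold change -0.73 ± 0.086 SE, adjusted p = 0.0168 by edgeR), with no overlap between genotypes. All 8 adipocyte markers were detected in every library, and their summed level was 22234 to 32153 CPM in WT and 21780 to 28054 CPM in KO. All 16 markers of duct epithelium had reads in KO libraries, and their sum was 558 and 581 CPM in KO replicates 2 and 3, 63.0 and 59.6 CPM in KO replicates 1 and 4, and 16.4 to 43.4 CPM in WT. WT replicate 1 had the highest sums of the 5 B cell markers (288 CPM, against 65.9 to 117 in other WT and 74.2 to 151 in KO libraries) and of the 5 T cell markers (113 CPM, against 27.7 to 65.0 in all others). Mitochondrial transcripts took 3.05% to 4.93% of counts in WT and 5.03% to 6.08% in KO. In such bulk tissue, fewer cells of a type and less RNA per cell cannot be told apart.

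Per length, the level of the 76 genes other than paralogs ranged 927-fold in deposited FPKM (reads scaled to exon length and library total), although their proteins are nearly all needed once per ribosome. The highest mean over the 8 libraries was that of Rplp1 (605 FPKM), followed by Rpl8 (442), which lies close to the peptidyl transferase centre, Rpl4 (352), which lines the exit tunnel, and Rps15 (287) of the small subunit head. The lowest were Rps23 (0.653 FPKM), Rps27 (0.762) and Rps6 (0.782), the protein phosphorylated by S6 kinases. The 10 genes with most reads held 56.7% of all reads of the 86, and 23 of the 76 had fewer than 100 reads per library on average.

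Genes at the highest levels had fewer copies elsewhere than the rest. The 26 genes at 50 CPM or more had a median of 4 pseudogenes that share a 50-base window with them and a median of 74.9% unique windows. The 28 genes from 5 to under 50 CPM and the 22 genes under 5 CPM each had a median of 12 such pseudogenes, with 51.2% and 50.5% unique windows. Across the 76 genes, Spearman's correlation of mean FPKM with the number of such pseudogenes was -0.45, a description across genes that share libraries. It was -0.35 among those at 50 CPM or more, -0.21 among those from 5 to under 50 CPM and 0.05 among those under 5 CPM. The part of ambiguous reads in the low levels was not tested. Rows of the table named as ribosomal protein pseudogenes were 180 in number and held 7582 reads, or 1.28% of the 593744 reads of the 86 genes, and 51 of them had no read.

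**Figure D1:**
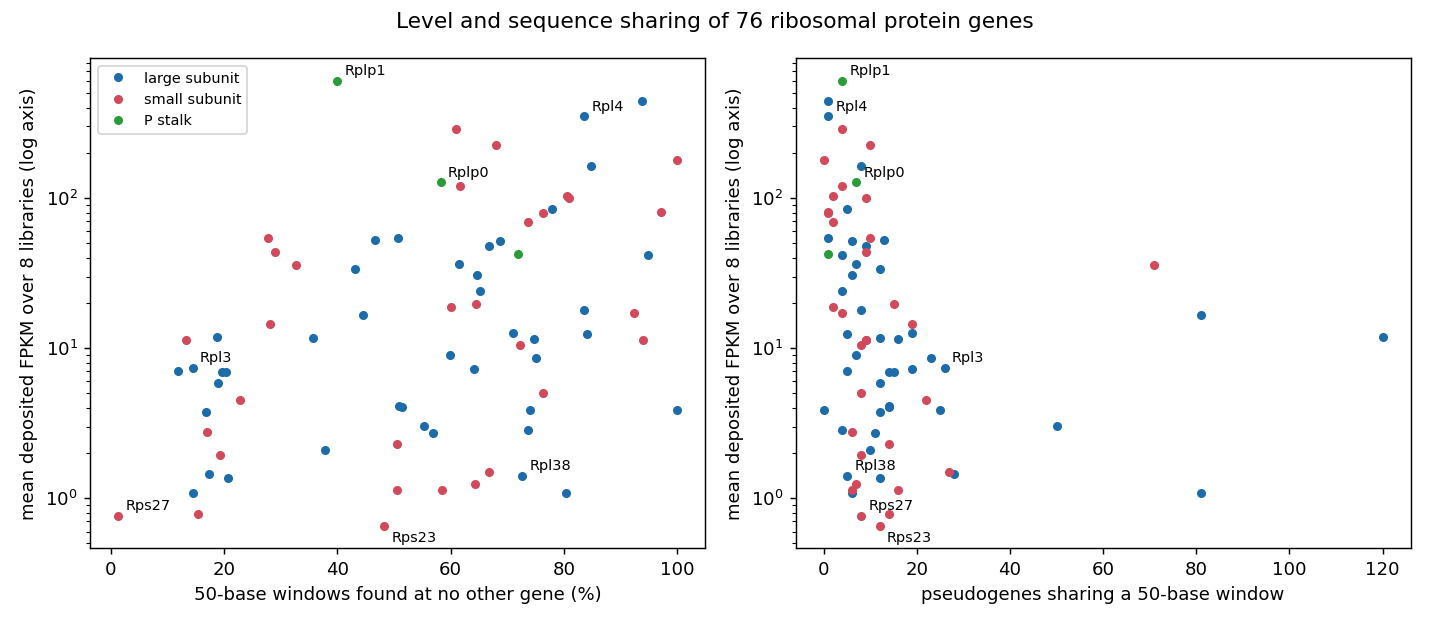
Mean deposited FPKM of 76 ribosomal protein genes (log axis) against the percentage of 50-base windows found at no other gene (left) and against the number of pseudogenes sharing a window (right), 1 point per gene, coloured by subunit. Rps27 has the lowest percentage (1.35%) and one of the lowest levels (0.762 FPKM), while Rplp1 has the highest level (605 FPKM) with 40.0% unique windows.

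Together the 86 genes took 0.581%, 0.438%, 0.449% and 0.480% of counts in WT replicates 1 to 4 and 0.513%, 0.538%, 0.614% and 0.448% in KO replicates 1 to 4. WT averaged 0.487% ± 0.0654 (SD, n = 4) and KO 0.528% ± 0.0688 (n = 4), and the ranges overlapped, with KO replicate 4 below 3 of the 4 WT libraries. Most of the genes were high or low in the same few libraries, which came from both genotypes. Of 79 genes that passed the filter on low counts, 35 were highest in KO replicate 3 and 29 in WT replicate 1, while 32 were lowest in WT replicate 2 and 18 in KO replicate 4. The median deviation from each gene's own mean on the log2 scale was 0.18 in WT replicate 1, -0.16, -0.09 and -0.08 in WT replicates 2 to 4, and 0.00, 0.07, 0.21 and -0.14 in KO replicates 1 to 4. The highest medians thus belonged to 1 library of each genotype. WT replicate 1 was the library with the fewest reads and the most B and T cell marker reads, and KO replicate 3 had the highest duct and mesothelial marker sums (267 CPM for the 4 mesothelial markers, against 55.9 to 209 in the other 7). Other libraries were mixed in this respect. The T cell sum was lowest in KO replicate 4 (27.7 CPM) and WT replicate 2 (28.9 CPM), the libraries with the lowest medians. WT replicate 2, with the highest mesothelial sum of the other 7 (209 CPM), had the lowest median. KO replicate 2, with 558 CPM of duct markers, had a median of 0.07. KO replicate 1, with 151 CPM of B cell and 65.0 CPM of T cell markers, had a median of 0.00. The adipocyte marker sum was lowest in KO replicates 2 and 3 and WT replicate 1 (21780, 21890 and 22234 CPM), the libraries with the highest medians. It was highest in WT replicate 3 (32153 CPM), which did not have the lowest median. The deepest libraries, KO replicate 4 (21688464 reads) and WT replicate 2 (17128811), had the lowest medians, but KO replicate 3 (14014040) was not the shallowest. The part of these cell types or of depth in the ribosomal protein levels was not tested.

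**Figure D2:**
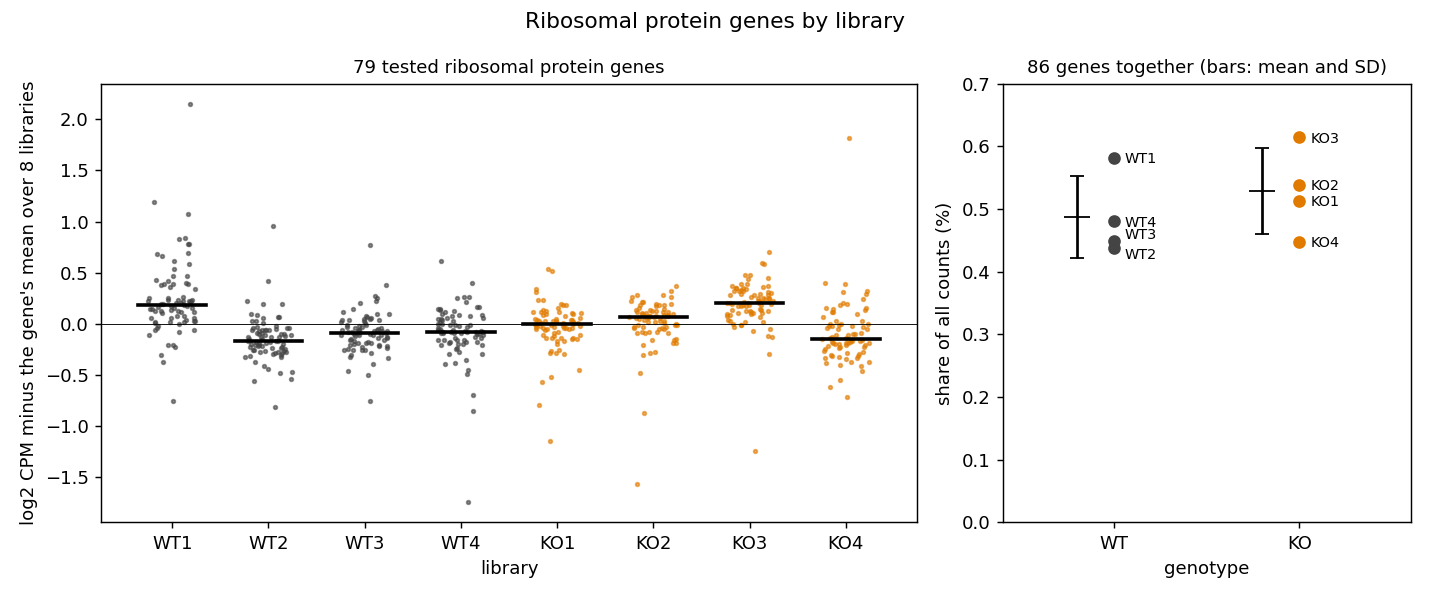
Left, the deviation of each of 79 tested ribosomal protein genes from its own mean (log2 CPM, vertical axis) in each of the 8 libraries, with the median as a bar; right, the share of all counts taken by the 86 genes in each library, with mean and SD per genotype. WT1 (median 0.18) and KO3 (0.21) stand above the other libraries, and WT2 (-0.16) and KO4 (-0.14) below.

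No ribosomal protein gene passed the test between genotypes. Of the 79 tested genes, 0 were called higher and 0 lower in KO at an adjusted p of 0.05 (edgeR's quasi-likelihood test with Benjamini-Hochberg adjustment over all 14800 tested genes), where 0.405% of all tested genes were called (0.277% higher and 0.128% lower). At an unadjusted p under 0.05 there were 3 genes, Rplp1, Rpl37 and Rps2, all higher in KO, or 3.80% of the 79 against 16.2% of all tested genes (8.52% higher and 7.66% lower). The values of the 4 KO and 4 WT libraries did not overlap for 2 genes, Rplp1 and Rps2, or 2.53% against 8.86% of all (4.32% higher and 4.54% lower). DESeq2 called 1 of the 79, Rplp1 (adjusted p = 0.0244), where it called 5.49% of all tested genes, and limma-voom called 0, where it called 0.304%.

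The fold changes were small, and their median turned negative only without KO replicates 2 and 3 or with a duct marker term. The median log2 fold change of the 79 genes was 0.08 (quartiles -0.05 and 0.15), beside -0.01 (-0.16 and 0.15) over all tested genes. Of the 79, 53 were positive (67.1%), against 47.6% of all tested genes. The 52 tested genes with at least 50% unique windows had a median of 0.10, with 40 positive. The 26 with under 50% unique windows had a median of 0.00, with 13 positive. For 54 of the 79 (68.4%) the 95% interval lay within a 1.5-fold change in either direction, and for 72 (91.1%) within 2-fold, against 57.9% and 81.0% of all tested genes. Among the 26 genes at 50 CPM or more, 24 were positive, with a median of 0.11, and the 19 tested genes under 5 CPM had a median of -0.04. For scale, the SD of single library medians within a genotype, over all 79 genes, was 0.15, whereas these medians compare groups of 4 libraries. With 1 library left out the median varied but stayed positive. It was 0.15, 0.04, 0.07 and 0.04 without WT replicates 1 to 4 in turn. For KO replicates 1 to 4 left out in turn it was 0.07, 0.06, 0.01 and 0.12. Without KO replicates 2 and 3, the libraries with high duct markers, the median was -0.02, with 36 genes positive. In a fit with mean log2 duct marker level as a term it was -0.11, with 22 positive. That level was 2.09 to 5.18 in KO and -0.0022 to 1.17 in WT libraries, so the fit cannot cleanly separate it from genotype.

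**Figure D3:**
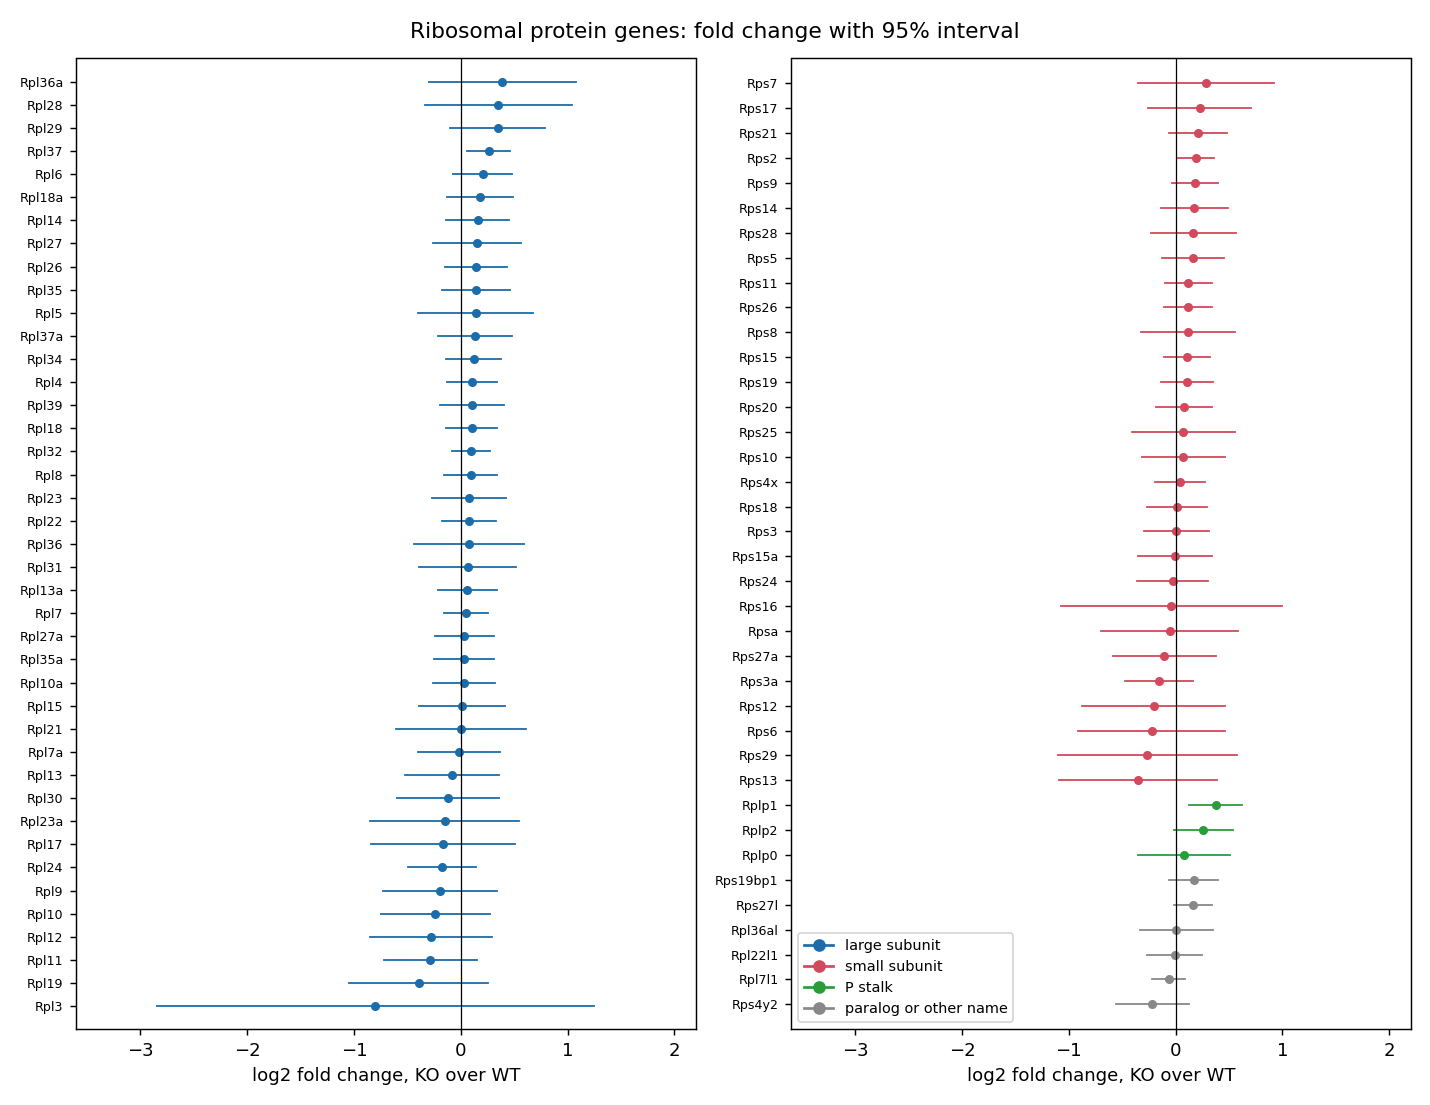
Log2 fold change (KO over WT, horizontal axis) of the 79 tested ribosomal protein genes as points with 95% intervals, large subunit at left and small subunit, P stalk and paralogs at right. The intervals of Rplp1, Rpl37 and Rps2 lie above 0, all others include it, and Rpl3 has the widest.

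The P stalk, the flexible arm of the large subunit that recruits elongation factors, gave the lowest p-value of the set. Rplp1 (chr9:61913284-61914538, minus strand), an acidic protein of the stalk, was at 229, 229.8, 308 and 279.5 CPM in WT replicates 1 to 4 and at 348, 344, 343 and 321 CPM in KO replicates 1 to 4. Every KO library lay above every WT library, and the 4 KO values were closer together than the WT values. Its log2 fold change was 0.37 ± 0.11 SE with an adjusted p of 0.162, and 0.32 to 0.46 under the other settings. Windows of Rplp1 were unique for 40.0%, with 270 shared with its closest copy, Gm10073.

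Its partner Rplp2 had 75.6, 78.99, 88.0 and 78.5 CPM in WT and 79.2, 84.5, 112 and 108 CPM in KO. KO replicates 3 and 4 were above all WT libraries, and the other two KO libraries lay among them (log2 fold change 0.26, adjusted p = 0.337). Rplp0, which anchors both partners to the ribosome, had 234, 143, 214 and 233 CPM in WT and 236, 269, 198 and 168 CPM in KO. Here KO replicates 3 and 4 were the low KO libraries, KO replicates 1 and 2 lay above all WT libraries, and WT replicate 2 lay below all KO libraries (log2 fold change 0.08 with a 95% interval from -0.35 to 0.51).

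Of the 41 tested large subunit genes, 28 had positive fold changes, with a median of 0.08, and none of their groups was free of overlap. Rpl37 (chr15:5116613-5119140, plus strand), a small zinc-binding protein, had 45.3, 37.3, 39.5 and 42.0 CPM in WT and 48.5, 48.7, 54.7 and 44.7 CPM in KO. Only KO replicate 4 lay below a WT library, replicate 1 (log2 fold change 0.26 ± 0.089 SE, adjusted p = 0.202). The most positive values otherwise belonged to low genes: Rpl36a (1.55 ± 0.311 CPM in WT and 2.03 ± 0.716 in KO, SD, n = 4 each), Rpl28 (2.84 ± 0.780 and 3.61 ± 1.09) and Rpl29 (11.7 ± 3.03 and 14.8 ± 1.90), each with overlapping groups. For Rpl29, the low end of WT was replicate 1 at 7.65 CPM, and the other WT libraries had 11.7, 12.3 and 14.99 CPM against 13.1, 14.1, 17.5 and 14.7 CPM in KO. Of the windows, 14.5% were unique for Rpl36a, 73.7% for Rpl28 and 44.5% for Rpl29.

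The 2 large subunit genes with the highest levels showed the library pattern of the whole set. Rpl4 had 545, 456, 460.3 and 467 CPM in WT and 509, 527, 576 and 463 CPM in KO, so that WT replicate 1 stood far above the other WT libraries. Rpl8 had 413, 336, 363 and 363 CPM in WT and 372, 414, 448 and 337 CPM in KO. In both, KO replicate 3 was highest and KO replicate 4 lay near the low WT libraries (log2 fold changes 0.11 and 0.09, with 95% intervals from -0.12 to 0.34 and from -0.16 to 0.34).

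Rpl5 and Rpl11, which with 5S ribosomal RNA can bind Mdm2 and so stabilise p53, did not share a direction. Rpl5 had 21.2, 14.3, 13.1 and 11.7 CPM in WT and 12.5, 19.3, 21.5 and 13.1 CPM in KO (log2 fold change 0.14, adjusted p = 0.817). Rpl11 had 8.34, 5.17, 5.50 and 5.76 CPM in WT and 5.16, 4.89, 5.52 and 4.76 CPM in KO (-0.28, adjusted p = 0.508). The highest library was KO replicate 3 for the one and WT replicate 1 for the other. A gene model lies on the opposite strand of each, and the sources used here do not say whether strand was used in counting, so their counts are uncertain.

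The sign of a large subunit gene went with its highest library: WT replicate 1 was highest in 11 of the 13 genes with negative fold changes, and KO replicate 3 in 20 of the 28 with positive ones. Since 1 high library raises the mean of its own group, these counts are no independent observation. Rpl12, which forms the base of the stalk, had 18.6 CPM there against 10.2, 8.53 and 9.76 CPM in the other WT libraries and 10.6, 8.60, 11.4 and 8.22 CPM in KO (log2 fold change -0.28; 0.03 without that library). Rpl10, which is added late in the assembly of the subunit, had 22.2, 16.0, 12.1 and 10.7 CPM in WT and 13.5, 12.4, 14.9 and 10.9 CPM in KO (-0.24; -0.0023 without that library). Rpl19, which reaches toward the small subunit, averaged 1.58 ± 0.433 CPM in WT and 1.21 ± 0.265 in KO (SD, n = 4 each; log2 fold change -0.40, adjusted p = 0.545). Of the windows, 51.0% were unique for Rpl12, 20.4% for Rpl10 and 20.7% for Rpl19. Rpl7 and Rpl22, at 139 ± 8.65 and 119 ± 10.2 CPM in WT, had 144 ± 14.99 and 125 ± 17.4 CPM in KO, and Rpl39 had 24.7 ± 4.13 and 26.6 ± 2.75 CPM.

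Rpl3 (chr15:80077781-80083406, minus strand), which lies near the peptidyl transferase centre, varied more between libraries than any other tested member. It had 317, 203, 128 and 28 reads in WT replicates 1 to 4 and 36, 28, 38 and 448 reads in KO replicates 1 to 4, or 27.3, 11.9, 10.5 and 1.83 CPM against 2.77, 2.07, 2.59 and 21.5 CPM. The lowest library was 14.9-fold below the highest, and each genotype held both high and low libraries. Its log2 fold change of -0.80 had a 95% interval from -2.84 to 1.25 (adjusted p = 0.713), and was -2.37 without KO replicate 4 and -0.14 without WT replicate 1. The row of Rpl3-ps1, which differs from Rpl3 at the base shown in capitals above and at 1 further coding base, had 1, 6, 3 and 11 reads in WT and 6, 11, 4 and 1 in KO, lowest in the same 2 libraries in which Rpl3 was highest. Only 14.4% of the windows of Rpl3 were unique. The spread of Rpl3 is that of the reads counted for this gene, and what part of it is a difference in message was not tested.

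**Figure D4:**
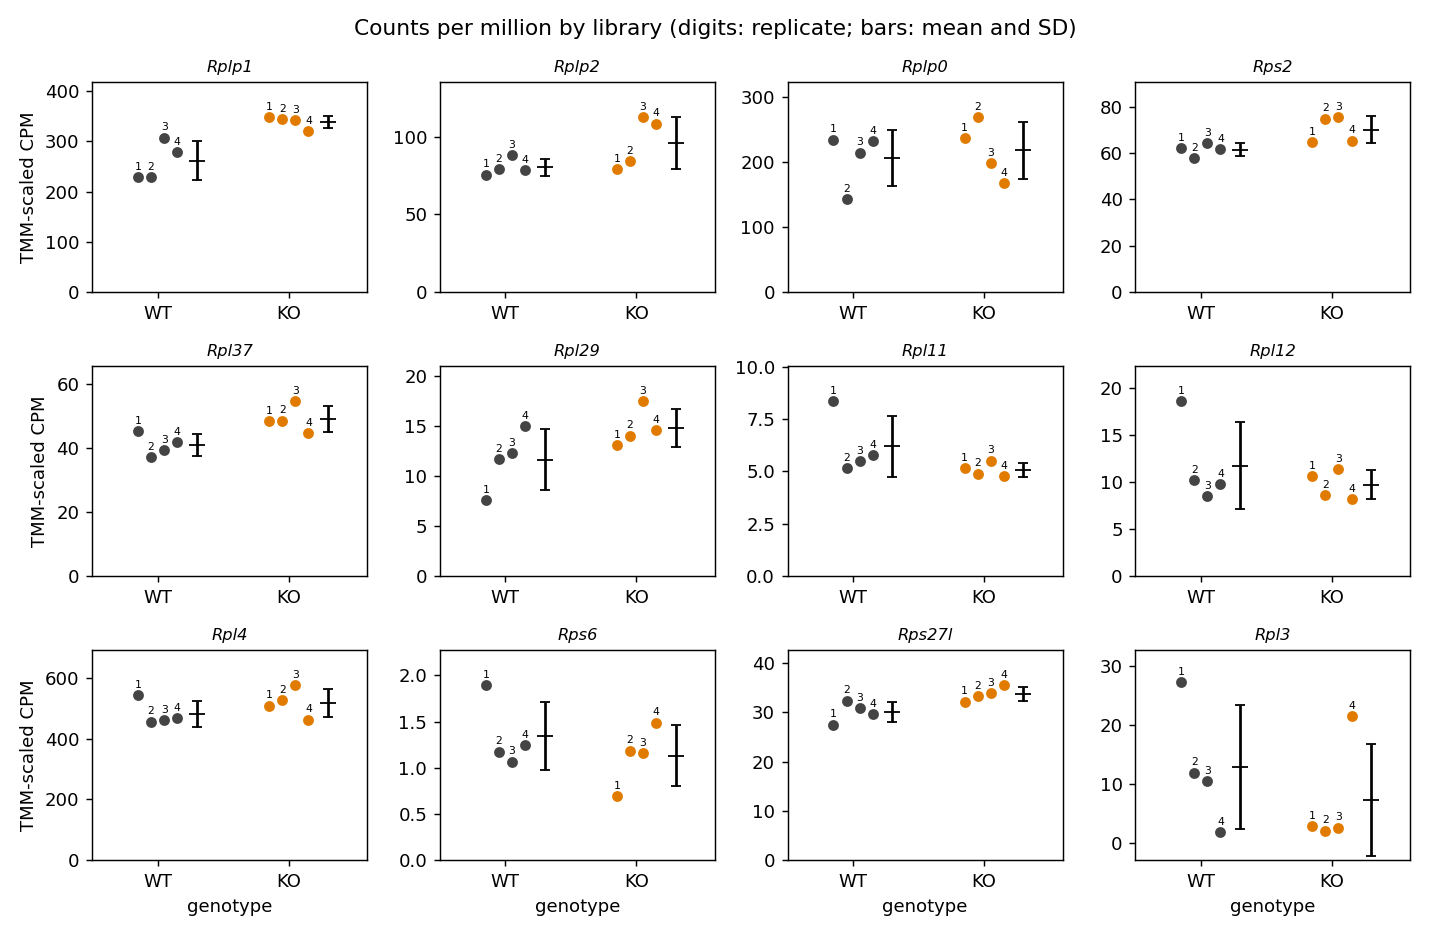
TMM-scaled CPM (vertical axes, each starting at or below 0) of 12 ribosomal protein genes in the 4 WT and 4 KO libraries, with replicate numbers above the points and mean and SD beside them. Rplp1 and Rps2 have no overlap between genotypes, WT1 is the high WT library of Rpl4, Rpl11 and Rpl12, and Rpl3 is high in WT1 and KO4.

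Of the 29 tested small subunit genes, 19 had positive fold changes, with a median of 0.07. Rps2 (chr17:24718116-24721929, plus strand), which sits at the entry of the message channel and is named here because of its values, had 62.1, 57.7, 64.3 and 61.9 CPM in WT and 64.9, 74.9, 75.5 and 65.4 CPM in KO. The groups did not overlap, but KO replicates 1 and 4 were close to the highest WT library (log2 fold change 0.19 ± 0.077 SE, adjusted p = 0.269). Gene models lie on the strand opposite to Rps2, 71 pseudogenes share windows with it, and 32.7% of its windows were unique.

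Rps15, the most abundant of the small subunit per length, had 194, 165, 185 and 177 CPM in WT and 189.8, 199.9, 218 and 169 CPM in KO. Rps19, the protein most often altered in Diamond-Blackfan anaemia, had 102, 80.5, 88.6 and 86.2 CPM in WT and 103, 97.1, 105 and 80.3 CPM in KO. Both followed the library pattern, with KO replicate 3 highest and KO replicate 4 low, and both had a log2 fold change of 0.11. Rps4x, encoded on the X chromosome, averaged 87.7 ± 8.03 CPM in WT and 90.3 ± 10.6 CPM in KO (SD, n = 4 each).

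Rps6 was measured at the edge of detection, at 1.89, 1.18, 1.07 and 1.24 CPM in WT and 0.693, 1.19, 1.16 and 1.49 CPM in KO. The groups overlapped, and its 95% interval ran from -0.91 to 0.46 in log2 fold change, which leaves room for changes from 0.532-fold to 1.38-fold. Rpsa, also known as the laminin receptor precursor, averaged 2.81 ± 0.740 CPM in WT and 2.70 ± 0.726 in KO (SD, n = 4 each), and Rps27a, made as a fusion with ubiquitin, 4.70 ± 1.14 and 4.36 ± 0.391. The ends of the range among small subunit genes were Rps7 (0.977 ± 0.319 and 1.195 ± 0.117 CPM) and Rps13 (4.21 ± 2.21 and 3.29 ± 0.385 CPM). WT replicate 1 was again the highest library for Rps13, at 7.48 CPM, and without it the log2 fold change of -0.35 became 0.07. Of the windows, 15.4% were unique for Rps6, 66.7% for Rpsa, 50.6% for Rps27a, 50.5% for Rps7 and 17.0% for Rps13.

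Among the paralogs, those used in other tissues were nearly silent. Over all 8 libraries Rpl3l, the form of striated muscle, had 11 reads, and Rpl39l and Rpl10l, forms of the testis, had 15 and 2 reads. These 3, Rps12l1 (0 reads), and the low core members Rps27 (31 reads), Rps23 (42) and Rpl38 (85) are the 7 genes that did not pass the filter. Rps27l, a paralog of Rps27 known as a p53 target, was well measured, with 27.5, 32.4, 30.9 and 29.6 CPM in WT and 32.2, 33.3, 33.9 and 35.5 CPM in KO. KO replicate 1 was the only KO library not above all WT libraries (log2 fold change 0.16 ± 0.078 SE, adjusted p = 0.341).

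Rpl22l1, which is known to be held down by its paralog Rpl22, had 17.4, 13.9, 16.7 and 14.99 CPM in WT and 14.1, 15.3, 15.9 and 17.2 CPM in KO, with a log2 fold change of -0.01. Rpl7l1 averaged 50.0 ± 1.96 CPM in WT and 47.9 ± 2.78 in KO, and Rpl36al 8.78 ± 1.29 and 8.80 ± 0.736 (SD, n = 4 each). For all 6 tested genes of this group the 95% interval lay within 1.5-fold.

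The other genes of the pathway gave no call either. Gnb2l1 (Rack1) and Fau, ribosomal proteins whose names the rule does not take, each had a log2 fold change of 0.14. The 34 tested genes of ribosome biogenesis had a median of 0.04, with 25 positive. The 3 genes under an unadjusted p of 0.05 are 8.82% of the list, against 16.2% of all tested genes, and all were higher in KO: Nhp2 (0.39, adjusted p = 0.187) and Nop10 (0.21, 0.266), both of the H/ACA particles that guide pseudouridylation, and Pes1 (0.17, 0.233), which processes large subunit RNA. Pes1 was the only one of the 34 (2.94%, against 8.86% of all tested genes) whose groups did not overlap (43.7 ± 1.68 CPM in WT and 49.0 ± 1.03 in KO, SD, n = 4 each).

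The 20 other genes with TOP messages had a median of 0.04. Eef1a1 and Eef2, the elongation factors that deliver transfer RNA and move the ribosome, had log2 fold changes of 0.09 and 0.00. The lowest p-values in this list belonged to genes with lower means in KO: Nap1l1, a histone chaperone, averaged 155 ± 22.3 CPM in WT and 103 ± 5.88 in KO (SD, n = 4 each; log2 fold change -0.59, adjusted p = 0.063), and Hnrnpa1, a splicing factor, 4.71 ± 0.731 and 3.47 ± 0.421 CPM (-0.44, adjusted p = 0.296), both with no overlap between groups. That is 2 of 20 genes (10.0%), beside 8.86% of all tested genes.

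The 20 genes around mTORC1 had a median of -0.09, with 6 positive. Sesn2, an inhibitor of mTORC1 that senses leucine, averaged 52.1 ± 14.8 CPM in WT and 74.6 ± 8.17 in KO (log2 fold change 0.52, adjusted p = 0.235), and Tsc1, also an inhibitor, 47.2 ± 4.95 and 40.0 ± 1.87 CPM (-0.24, adjusted p = 0.236), both with overlapping groups. Larp1, which binds TOP messages, had a log2 fold change of -0.10, and Eif4ebp2, which restrains cap binding, -0.20. The 13 genes of ribosome turnover and quality control had a median of -0.06, led by Ltn1 (-0.17), a ubiquitin ligase for stalled chains, and the 12 p53 targets -0.02, with Bax at 0.20, Phlda3 at -0.40 and Ccng1 at 0.40 (adjusted p = 0.274, 0.362 and 0.408).

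The mitochondrial ribosome, built from other genes, gave a median of 0.01 over 76 tested genes. At an unadjusted p under 0.05, 3 were higher and 1 lower in KO (5.26%, against 16.2% of all tested genes), with Mrpl45 (0.41, adjusted p = 0.121), Mrps18a (0.32, 0.156) and Mrpl33 (-0.20, 0.2) the lowest p-values. Their 95% intervals were narrower: 93.4% lay within 1.5-fold, against 68.4% of the cytosolic set. Of the 180 pseudogene rows 17 could be tested, with a median of 0.14 and 0 calls.

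**Figure D5:**
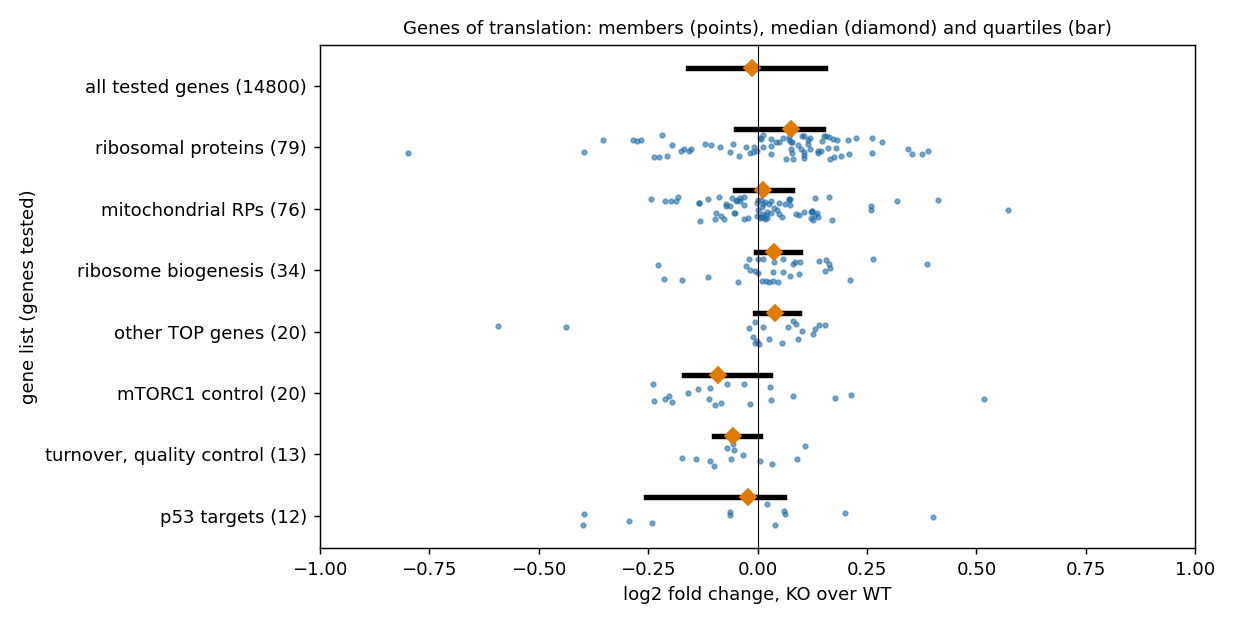
Log2 fold changes (KO over WT, horizontal axis) of the tested genes of 7 lists as points, with the median as a diamond and the quartiles as a bar, and the same summary for all 14800 tested genes. The plotted medians run from -0.09 for mTORC1 control to 0.08 for the ribosomal proteins, within the quartiles of all genes (-0.16 and 0.15).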

How the data were processed

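RNA was measured in 8 libraries from 8 mice, 1 library each. Per the labels' protocols, oligo(dT) beads and a stranded TruSeq kit were used. Novoalign 2.8.1, Picard and the build mm10 are named in the submitters' processing notes. The sources used here do not name the counter or annotation. One table was deposited by the authors, with a raw count of reads and an FPKM value per gene and library, per the file headers. Deposited FPKM equals the count scaled to exon length and library total, and was used for levels only.

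Groups come from the sample titles. Counts were tested with R 4.3.3, edgeR 4.0.16 (filterByExpr with a minimum count of 10, TMM, quasi-likelihood F test) with Benjamini-Hochberg adjustment, called at 0.05, after the script was tested on simulated data. Alternatives used DESeq2 1.42.0, limma 3.58.1, other scalings and filters, a replicate block, left-out libraries and a duct marker covariate. P-values set the difference between genotypes against the spread between these mice.

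The members, gene lists and naming rule were chosen with earlier results of these data known. The rule names the 6 highest and 6 lowest log2 fold changes among members with at least 1 CPM, the 4 highest FPKM, members listed by role or paralogy, and up to 3 genes per other list. Rps2, Eef1a1, Eef2 and Larp1 fall outside it and were named after their values were seen. Some genes of the lists are not reported here. Windows of 50 bases were taken from the principal GENCODE M21 transcripts and matched exactly on either strand to transcripts of other genes. Other gene models overlap 32 members on the same strand, many of them small nucleolar RNAs, and 19 on the opposite strand.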

Additional observations from a re-analysis of the deposited data

Results flagged for a closer look

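Among the 30 named and tested genes, screened in 60 groups of 4 libraries, 1 library stood apart from the other three of its genotype by Dixon's criterion in 3 genes. Chance alone meets the criterion in about 1 of 20 groups. Over all 79 tested genes it was met in 9 of 158 groups (5.70%), 4 of them with WT replicate 1 highest. Rpl3 was at 21.5 CPM in KO replicate 4, against 2.07 to 2.77 CPM in the other KO libraries. Rpl12 was at 18.6 CPM in WT replicate 1, against 8.53 to 10.2 CPM, and Rpl4 at 545 CPM in WT replicate 1, against 456 to 467 CPM. The values of Rpl12 and Rpl4 come from the library that was highest in 29 of 79 tested ribosomal protein genes.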

How the results depend on the processing

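Under the 20 alternatives, ribosomal protein genes called in either direction stayed at 0, except that DESeq2 called 1 higher. Several of these fits called few genes of any kind, so their 0 says little: 0 of all tested genes without KO replicate 2, 3 without KO replicates 2 and 3, 3 with the duct marker covariate, 4 without WT replicate 2, 7 without WT replicate 1 and 8 without WT replicate 4, against 813 under DESeq2. Their count with no overlap between groups, 2 with all libraries, was 3 to 7 with 1 library left out (7 without WT replicate 1, 4 without WT replicate 2, 5 without WT replicate 3, 6 without KO replicate 1 and 6 without KO replicate 4), where fewer samples also raised the share of all genes from 8.86% to between 10.2% and 14.7%. The difference in share of counts, KO minus WT, was 0.0413 percentage points, 0.0728 without WT replicate 1, 0.0682 without KO replicate 4, 0.0249 without WT replicate 2, 0.0127 without KO replicate 3 and -0.0066 without KO replicates 2 and 3. Their median log2 fold change was -0.11 with the duct marker covariate, which is not cleanly separable from genotype, and otherwise between -0.02 and 0.15.

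Of 30 named genes tested under all alternatives, 12 kept the sign of their log2 fold change throughout (Rpl10 at -0.0023 without WT replicate 1), and none of the other 18 was called under any. With the duct marker covariate the sign turned for Rpl28 (-0.018), Rpl3 (0.83), Rps15 (-0.078), Rpl4 (-0.074), Rpl8 (-0.17), Rplp0 (-0.025), Rps19 (-0.012), Rps4x (-0.23), Rpl5 (-0.56), Rpl22 (-0.21), Rpl22l1 (0.030), Rpl39 (-0.0079) and Rpl7 (-0.11). Without KO replicates 2 and 3 it turned for Rpl8 (-0.044), Rplp0 (-0.016), Rps4x (-0.091), Rpl5 (-0.22), Rpl22 (-0.066), Rpl7 (-0.036) and Rpl22l1 (0.0053). For Rpl22l1 it also turned with upper quartile scaling (0.0041), library size only (0.0051), DESeq2 (0.0053) and limma-voom (0.018). With 1 library left out the values ran from -0.51 to 0.072 for Rps13, -0.40 to 0.031 for Rpl12, -0.064 to 0.19 for Rplp0, -0.22 to 0.098 for Rpsa, -0.25 to 0.015 for Rps27a, -0.0066 to 0.11 for Rps4x, -0.0063 to 0.35 for Rpl5, -0.0047 to 0.15 for Rpl22, -0.066 to 0.042 for Rpl22l1 and -0.090 to 0.085 for Rpl36al. The duct marker level was higher in every KO library than in any WT library, so that fit cannot cleanly separate it from genotype. The cause of these turns was not tested.

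Replicate numbers did not pair the libraries (same-numbered deviations correlated at 0.18, -0.11, -0.25 and 0.06). With the replicate block the median was 0.07, 0 ribosomal protein genes were called, and 14 of all genes were called in place of 60. Depth limits the low genes: 23 of 76 had under 100 reads per library.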
